A study of Mus musculus with 31 samples.

Results

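Cd79a, Cd79b, Ms4a1, Cd22 and Pax5, 5 genes that mark B cells, were followed in 31 bulk RNA-seq libraries of mouse masseter muscle (MM), the large chewing muscle that lies on the jaw bone. They were chosen by name as 5 of the 22609 gene symbols in each count table. Each library came from a C57BL/6J male, and the labels give no age. The 9 groups were 3 mice at 1d and 3 mice at 5d post-CFA (complete Freund's adjuvant, which provokes inflammation) with 3 vehicle mice titled CFA, 4 mice each of the groups named 1C and RPC post-Col (0.2U; Col is collagenase type 2, which degrades the extracellular matrix), the high-dose Col groups (10U; 4 mice at 2d, 3 at 6d, 4 at 12d) and 3 vehicle mice titled as controls. The days are those of the labels, the study's text gives other days for the 2d and 12d groups, and the labels give no day for 1C and RPC. Every group received an injection into the muscle, so no group was uninjected. As a check of the labelled tissue, 6 skeletal muscle genes summed to between 21435 and 133413 CPM (counts per library scaled to a common total).

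B cells carry an antigen receptor whose signal leaves the membrane through the paired chains Cd79a and Cd79b. Ms4a1 encodes CD20, a membrane protein of B cells, Cd22 is a sialic acid binding receptor that restrains signalling by the antigen receptor, and Pax5 is the transcription factor that commits precursors to the B lineage. B cells are made in bone marrow and gather in lymph nodes, and both tissues lie close to the MM. The comparisons therefore asked whether the 5 genes followed the treatment or followed genes of bone, marrow and lymph node in the same libraries. In bulk tissue, fewer B cells and less RNA per B cell cannot be told apart.

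In mm9, Cd79a lies at chr7:25682400-25687216 on the plus strand. The other members lie on the minus strand, Cd79b at chr11:106172655-106176076, Ms4a1 at chr19:11324654-11340669, Cd22 at chr7:31650421-31665361 and Pax5 at chr4:44544017-44724318. The counted reads covered the exons of these genes, and 0.364% or less of the 50-base windows of each member occurred in transcripts of another gene. The nearest gene to Cd79b on the same strand is Scn4a, the sodium channel of skeletal muscle, 3830 bp away. Scn4a had 3515 to 26932 reads per library, and the library with the most Scn4a reads, 1d post-CFA replicate 1, had 5 reads on Cd79b.

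The promoters of Cd79a and Cd22 are shown because Cd79a was high in single libraries of many groups and Cd22 at 6d post-Col (10U), and that of Pax5 because it encodes the lineage factor. The windows run from 250 bases before the gene start and are 300 bases long, from RefSeq (GRCm38.p6), which held 3 of the 5 members. They are Cd79a (chr7:24897247-24897546, plus strand), Cd22 (chr7:30878979-30879278, minus strand) and Pax5 (chr4:44710645-44710944, minus strand). Capitals mark the letters GGAAGT (ETS core), CAGGTG (E-box bound by E2A) and the EBF1 palindrome, which is the later capital run of the Cd22 window, searched on both strands.
Cd79a: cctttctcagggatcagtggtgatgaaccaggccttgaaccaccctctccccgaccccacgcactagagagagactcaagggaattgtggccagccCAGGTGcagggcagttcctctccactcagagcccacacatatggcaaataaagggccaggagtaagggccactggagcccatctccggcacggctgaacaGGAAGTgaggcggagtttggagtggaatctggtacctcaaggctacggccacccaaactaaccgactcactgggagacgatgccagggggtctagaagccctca
Cd22: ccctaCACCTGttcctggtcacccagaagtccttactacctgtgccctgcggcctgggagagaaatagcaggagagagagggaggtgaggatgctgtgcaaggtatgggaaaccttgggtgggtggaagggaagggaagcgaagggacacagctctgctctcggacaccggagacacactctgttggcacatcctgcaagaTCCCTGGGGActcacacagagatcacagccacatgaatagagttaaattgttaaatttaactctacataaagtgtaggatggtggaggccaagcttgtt
Pax5: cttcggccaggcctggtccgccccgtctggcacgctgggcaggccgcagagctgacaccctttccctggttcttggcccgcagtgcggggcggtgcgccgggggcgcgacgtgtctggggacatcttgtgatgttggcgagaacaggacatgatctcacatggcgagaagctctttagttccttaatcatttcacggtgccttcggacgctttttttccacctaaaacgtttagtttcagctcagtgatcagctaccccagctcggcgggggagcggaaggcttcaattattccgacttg

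The ETS core was in the Cd79a window, the EBF1 palindrome was in the Cd22 window, and CAGGTG was in both. None of these was in the Pax5 window, and the octamer ATGCAAAT and the letters TATAAA were in none of the 3. Of 32851 promoter windows, 23.8% held the ETS core, 20.2% CAGGTG, 13.6% TATAAA, 1.74% the octamer and 0.904% the EBF1 palindrome. None of these motifs overlapped another in the printed windows.

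All 5 genes were low in the MM. Levels are given as CPM of reads on genes after TMM scaling, and as RPKM, which divides CPM by exon length in kilobases, where genes are compared. The median over 31 libraries was 0.791 RPKM for Cd79b, 0.25 for Cd22, 0.198 for Cd79a, 0.0903 for Ms4a1 and 0.0684 for Pax5. At least 10 reads were counted in 25 libraries for Cd79b, 22 for Cd22, 15 for Cd79a, 11 for Pax5 and 10 for Ms4a1. The ranges overlapped between all neighbours in this order, from 0.141 to 7.4 RPKM for Cd79b and from 0 to 0.376 RPKM for Pax5. The libraries held 14843778 to 29076671 reads on genes, and 10 reads, which carry a counting error of 31.6%, equal 0.344 CPM at the largest and 0.674 CPM at the smallest of these depths.

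Cd79a varied widely between mice of one group. In vehicle mice titled CFA it was 0.0807, 0.137 and 3.75 CPM, and in the Col vehicle mice 0.654, 0.133 and 3.98 CPM. At 1d post-CFA it was 0, 0.178 and 2.01 CPM, and at 5d 0.0937, 0.156 and 0.0529 CPM. Each vehicle group and the 1d group thus held 1 library, replicate 3, far above the others. In the 1C group Cd79a was 1.84, 5.53, 0.956 and 0.978 CPM, and in the RPC group 1.91, 1.83, 0.0555 and 1.84 CPM. Post-Col (10U) it was 0.27, 1.08, 2.98 and 0.432 CPM at 2d, 0.215, 0.205 and 0.207 CPM at 6d, and 0.289, 0.245, 0.162 and 1.18 CPM at 12d. The 6d libraries, with 5, 6 and 5 reads on Cd79a, lay within the range of the vehicle libraries. The lowest 2d library, replicate 1, had 5 reads too, so 6d and 2d were not told apart there by reads.

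Cd79b, Ms4a1 and Pax5 were high in the same libraries. Cd79b was highest in 1C replicate 2 at 10.6 CPM and CFA vehicle replicate 3 at 8.72 CPM, and the other two CFA vehicle libraries were at 0.202 and 0.502 CPM. Ms4a1 was highest in these 2 libraries as well, at 3.43 and 3.13 CPM, with 0 and 0.0912 CPM in the other two CFA vehicle libraries. Pax5 reached 1.29 CPM in CFA vehicle replicate 3, 1.21 CPM in 1d post-CFA replicate 3 and 0.954 CPM in 1C replicate 2, and was listed at 0 in 3 libraries. RPC replicate 3 was the lowest of its group for all 5 members.

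Cd22 differed from the other members at 6d post-Col (10U). Elsewhere it was high in several of the same libraries, such as replicate 3 of both vehicle groups and 1C replicate 2. Over 31 libraries Spearman's rho of Cd22 was 0.686 with Ms4a1, 0.511 with Cd79b, 0.472 with Cd79a and 0.266 with Pax5. In the Col vehicle mice it was 0.349, 0.333 and 1.66 CPM, and at 6d post-Col (10U) 6.57, 8.86 and 3.65 CPM. It was 1.08, 1.31, 1.96 and 0.432 CPM at 2d and 0.385, 0.183, 0.108 and 4.21 CPM at 12d, where replicate 4 stood apart. In the 1C group it was 1.28, 3.72, 1.22 and 0.931 CPM, and in the RPC group 0.814, 1.07, 0.388 and 1.93 CPM. Vehicle mice titled CFA had 0.0404, 0.0912 and 2.72 CPM, with 0.573, 0.534 and 1.83 CPM at 1d and 1.12, 0.417 and 1.96 CPM at 5d post-CFA. All 6d libraries lay above all Col vehicle and all 2d libraries, while the 12d group overlapped both.

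**Figure D1:**
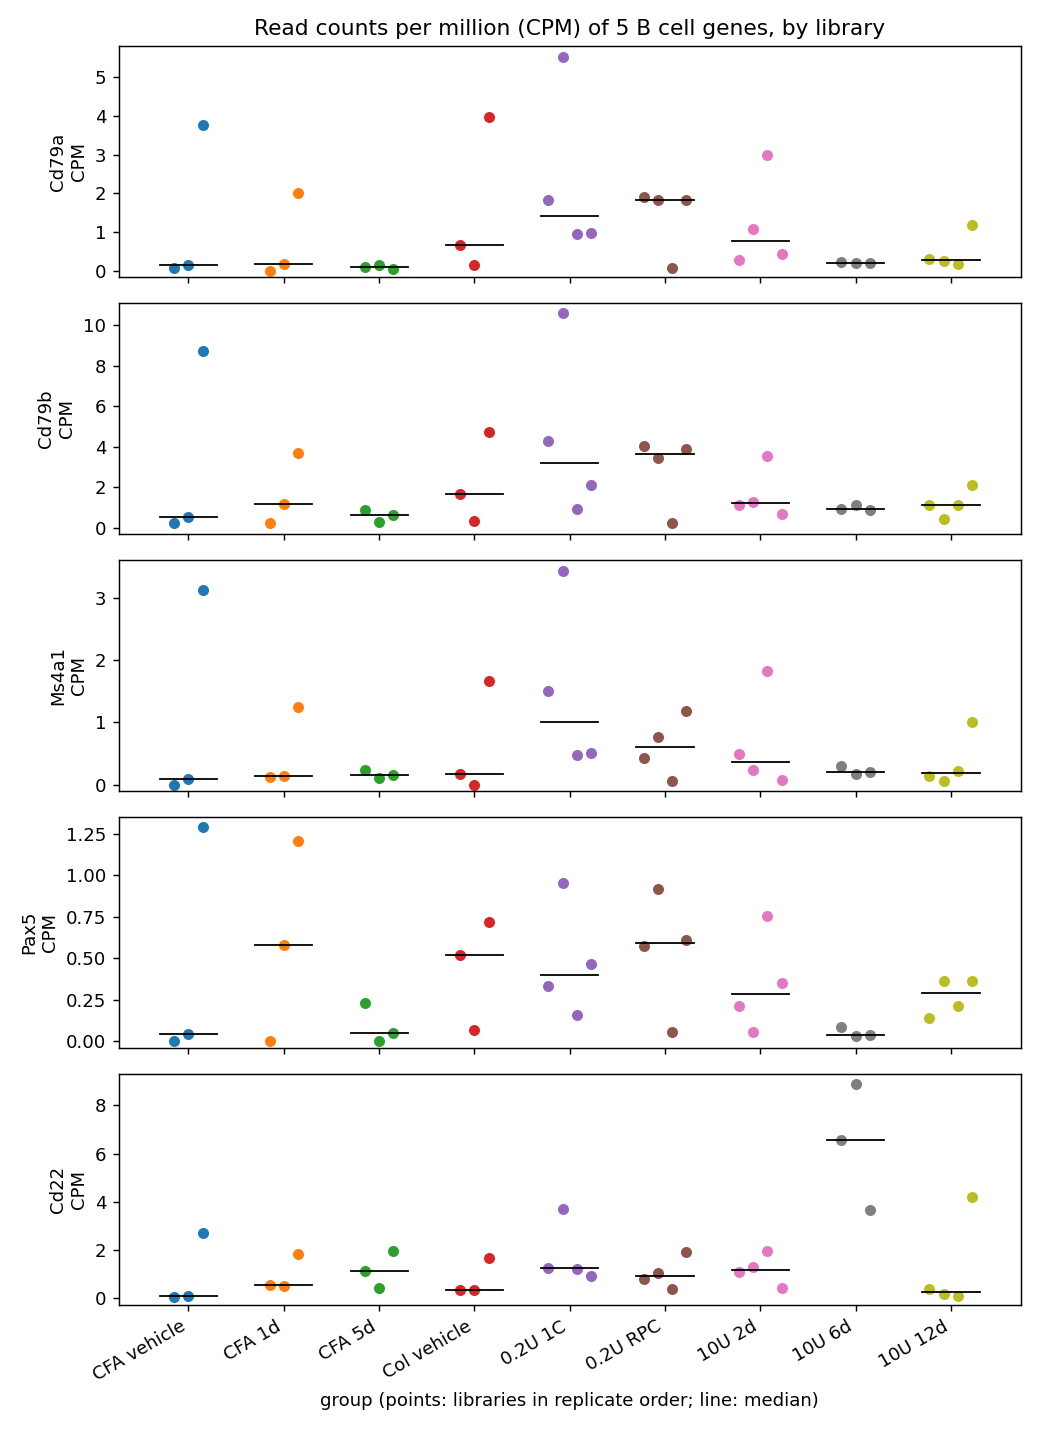
CPM of each B cell gene (y axis, linear, one panel per gene) in the 31 libraries, arranged by group on the x axis, with points for libraries in replicate order and a line for the group median. Cd79a, Cd79b, Ms4a1 and Pax5 were high in single libraries such as CFA vehicle replicate 3 and 1C replicate 2. Cd22 was at 2.72 and 3.72 CPM in these, and at 3.65 to 8.86 CPM in all 3 libraries at 6d post-Col (10U).

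Of the 5 members, Cd22 rose at 6d post-Col (10U) and no other member passed the test in any comparison. Cd22 was tested at 6d against vehicle because all 6d libraries reached 10 reads (153, 259 and 88). Of the Col vehicle libraries, with 8, 5 and 37 reads, only replicate 3 did. Cd79a, Ms4a1 and Pax5 did not meet the filter there, so Cd22 standing alone was partly set by the filter. Against the Col vehicle, the mean of Cd22 was 6.36 ± 2.61 CPM (SD, n = 3) against 0.779 ± 0.76 CPM (SD, n = 3). The log2 fold change was 2.95 ± 0.68 (SE), with an adjusted p of 0.0212 in edgeR's quasi-likelihood test. In that comparison 27.3% of 14281 tested genes were called and 26% had every 6d library above every vehicle library, so 1 called gene of the 2 tested members is read against a high background. Cd22 was not called without 6d replicate 1 (adjusted p = 0.0701, edgeR), 6d replicate 2 (0.0839) or vehicle replicate 1 (0.0551). With the spread estimated over all 31 libraries the edgeR adjusted p was 0.0522, and in DESeq2 it was 0.000114.

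Cd79b, the other member tested at 6d against vehicle, had a mean of 0.956 ± 0.121 CPM (SD, n = 3) at 6d and 2.24 ± 2.26 CPM (SD, n = 3) in vehicle. Its log2 fold change was -1.29 ± 0.78 (SE, edgeR adjusted p = 0.24). Without vehicle replicate 2 Cd79b was called, with a log2 fold change of -1.80 (edgeR adjusted p = 0.0421). Cd79a, Ms4a1 and Pax5 had fewer than 3 libraries with 10 reads in this comparison and were not tested.

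Cd22 was also higher at 6d than at 2d post-Col (10U). Its mean was 1.19 ± 0.63 CPM (SD, n = 4) at 2d, the log2 fold change was 2.43 ± 0.5 (SE), and the edgeR adjusted p was 0.0309. Between these groups 8.73% of 14513 tested genes were called and 11.6% had every 6d library above every 2d library. Cd22 lost the call without 6d replicate 1 (edgeR adjusted p = 0.117), 6d replicate 2 (0.152), 2d replicate 1 (0.0807) or 2d replicate 2 (0.0887), and with the spread of all 31 libraries (0.122). Cd79a differed by -2.47 ± 0.88 (log2, SE) and missed the threshold (edgeR adjusted p = 0.124), but passed it in DESeq2 (-2.49, adjusted p = 0.0367).

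At 2d and 12d post-Col (10U) no member passed the test, where 2.22% and 1.23% of tested genes were called. At 2d against vehicle the log2 fold changes were -0.49 ± 1.11 (SE) for Cd79a, -0.51 ± 0.86 for Cd79b, 0.53 ± 0.75 for Cd22 and -0.39 ± 0.9 for Pax5. At 12d they were -1.74 ± 1.07 (SE) for Cd79a and -0.90 ± 0.82 for Cd79b, and Cd22 was not tested because only 12d replicate 4 and vehicle replicate 3 had 10 reads.

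In the 0.2U groups no gene of the whole table was called by edgeR, so the percentage called was 0 for both. At an unadjusted p under 0.05 edgeR counted 1819 genes in 1C and 1923 in RPC, and DESeq2 called 519 and 443 genes. The largest member difference was that of Ms4a1 in 1C, a log2 fold change of 1.24 ± 1.19 (SE). Cd22 had 1.18 ± 0.76 in 1C and 0.40 ± 0.75 in RPC. None of the 5 members had an unadjusted p under 0.05 in either group, and DESeq2 called no member in them.

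At 1d post-CFA edgeR likewise called no gene, while its unadjusted p was under 0.05 for 588 genes and DESeq2 called 56. At 5d post-CFA 1.11% of tested genes were called. Cd79b had log2 fold changes of -0.92 ± 1.42 (SE) at 1d and -2.38 ± 1.32 at 5d, and Cd22 of -0.01 ± 1.29 and 0.28 ± 1.29, none past the threshold. Leaving out vehicle replicate 3 turned Cd79b to 2.32 at 1d and 0.86 at 5d. The Col and CFA vehicle groups differed in 0.0426% of tested genes, none of them a member.

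**Figure D2:**
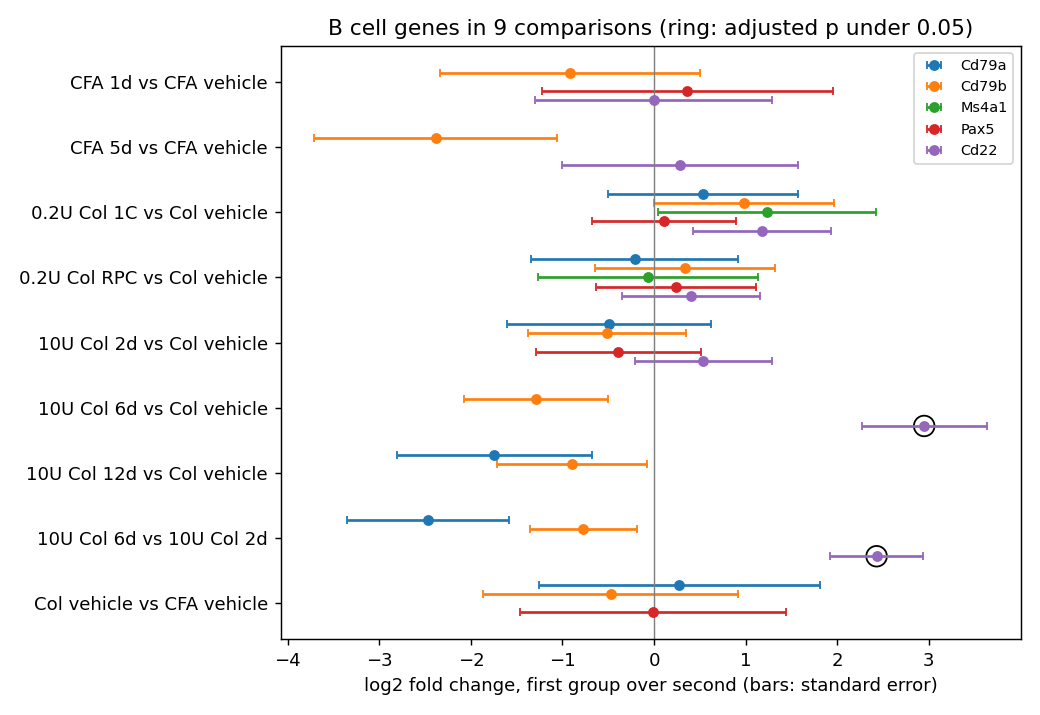
Log2 fold change of each tested B cell gene (x axis, first group over second, bars for the standard error) in the 9 comparisons (y axis), with a ring where the edgeR adjusted p was under 0.05. Rings stand on Cd22 alone, at 2.95 for 6d post-Col (10U) against vehicle and at 2.43 for 6d against 2d.

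The effects of CFA and Col (10U) were also compared in 1 fit of all libraries. The 6d Col effect on Cd22 exceeded the 5d CFA effect by 2.72 ± 1.59 (log2, SE), which missed the threshold (edgeR adjusted p = 0.275). For the other members the adjusted p was 0.693 or higher, so a difference between CFA and Col was not shown.

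Ibsp and Dmp1, which encode bone sialoprotein and a matrix protein of osteocytes, varied strongly between mice of a group. Ibsp fell into separate clusters, with 10 libraries at or under 1.74 CPM and 21 libraries at or over 17.2 CPM. Each treated group other than 1C, 2d and 12d held at least 1 library of the lower cluster, and so did both vehicle groups. Dmp1 had a continuous range of 0.9 to 44.6 CPM, and it was at 7.93 to 9.41 CPM at 5d post-CFA, where Ibsp was at 0.328 CPM or less. These values show that bone transcripts were present in most libraries and at unequal levels.

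Of the 5 members, 4 followed Dmp1 across the libraries. On log2(CPM + 0.1), Cd79a had r = 0.793 and rho = 0.734 with Dmp1 over 31 libraries (two-sided permutation p = 1e-05 for both, the smallest that 100000 resamples can give, adjusted 3.33e-05 for both over 10 relations). Spearman's rho with Dmp1 was 0.732 for Cd79b, 0.72 for Ms4a1 and 0.747 for Pax5 (permutation p = 2e-05, 1e-05 and 1e-05, adjusted 5e-05, 3.33e-05 and 3.33e-05), and Pearson's r was 0.733, 0.687 and 0.713 (permutation p = 1e-05, 1e-05 and 3e-05, adjusted 3.33e-05, 3.33e-05 and 7.5e-05). Without the 2 libraries farthest from the median of Dmp1, r was 0.736 for Cd79a, 0.653 for Cd79b, 0.658 for Ms4a1 and 0.658 for Pax5. Within the 9 libraries titled CFA, r was 0.768, 0.775, 0.666 and 0.707, and within the other 22 it was 0.817, 0.712, 0.686 and 0.735. Cd22 had r = 0.232 and rho = 0.293 with Dmp1 (permutation p = 0.209 and 0.11, adjusted 0.232 and 0.122), and r = 0.144 without the 2 farthest libraries. On deviations from the group means, rho of Cd22 with Dmp1 was 0.73 (permutation within groups, adjusted p = 0.000767).

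With Ibsp, the relation was computed within its clusters. In the 21 libraries of the upper cluster, r was 0.636 for Cd79a, 0.45 for Cd79b, 0.569 for Ms4a1, 0.475 for Cd22 and 0.0862 for Pax5 (permutation p = 0.00221, 0.0422, 0.00755, 0.03 and 0.708, adjusted 0.00442, 0.0528, 0.0126, 0.0429 and 0.708). Spearman's rho was 0.64, 0.509, 0.634, 0.483 and 0.187 (permutation p = 0.00242, 0.02, 0.00294, 0.028 and 0.415, adjusted 0.00484, 0.0286, 0.0049, 0.035 and 0.415). Without the 2 farthest libraries, r was 0.546, 0.409, 0.479, 0.438 and 0.0803, and only Cd79a and Ms4a1 kept an unadjusted permutation p under 0.05 for r. In the 18 of these libraries not titled CFA, r was 0.658, 0.517, 0.63, 0.494 and 0.238, and the 3 titled CFA were too few for a value. In the 10 libraries of the lower cluster, r was 0.264 or less and no relation passed the threshold.

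The same 4 members also followed genes of marrow. The sum of 6 genes of marrow myeloid precursors, Elane, Mpo, Prtn3, Ctsg, Camp and Ngp, which encode granule proteins, ranged from 1.4 to 734 CPM. Its r was 0.914 for Cd79a, 0.825 for Cd79b, 0.76 for Ms4a1 and 0.838 for Pax5, against 0.219 for Cd22 (permutation p = 1e-05 for the 4 and 0.238 for Cd22, adjusted 2e-05 and 0.298). Spearman's rho was 0.875, 0.823, 0.729, 0.814 and 0.218 (permutation p = 1e-05, 1e-05, 2e-05, 1e-05 and 0.24, adjusted 2.5e-05, 2.5e-05, 4e-05, 2.5e-05 and 0.267). Without the 2 farthest libraries, both of which were 6d libraries, r was 0.931, 0.863, 0.787 and 0.829, and r of Cd22 was 0.51 (permutation p = 0.00549). On deviations from the group means, rho of Cd22 with the marrow genes was 0.7 (permutation within groups, adjusted p = 0.00094). Within the libraries titled CFA r was 0.907, 0.906, 0.874, 0.928 and, for Cd22, 0.577, and within the other 22 it was 0.909, 0.765, 0.695, 0.798 and -0.00868. Within the CFA libraries rho with the marrow genes was 0.717 for Cd79a, 0.7 for Cd79b, 0.583 for Ms4a1 and 0.661 for Pax5 (exact permutation, adjusted p = 0.105 to 0.135), and with Dmp1 it was 0.667, 0.85, 0.867 and 0.814. These relations were chosen after the values were seen, and the difference between marrow and bone genes was not tested.

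Cd22 also followed genes of macrophages. With the sum of Emr1, Csf1r, Cd68 and Mrc1 (25.8 to 454 CPM), Cd22 had r = 0.754 and rho = 0.771 (permutation p = 1e-05 for both, adjusted 2e-05 and 2.5e-05 over the same 10 relations). It was r = 0.658 without the 2 farthest libraries, 0.717 within the CFA libraries and 0.753 within the others. The other members had r between 0.0278 and 0.341, and only rho of Ms4a1 (0.42, permutation p = 0.0193, adjusted 0.0322) passed the threshold. Emr1 rose at 6d against vehicle with a log2 fold change of 2.80 ± 0.41 (SE, edgeR adjusted p = 0.00558), as did Cd68 (3.38 ± 0.67, 0.0138), Csf1r (1.61 ± 0.39, 0.0234) and Mrc1 (1.54 ± 0.41, 0.032). Of the 7 macrophage and neutrophil genes tested 4 rose and 2 fell, beside 27.3% of all tested genes called. Those that fell were S100a8 (-4.78 ± 1.36, edgeR adjusted p = 0.0378) and S100a9 (-6.86 ± 1.49, 0.0177). The relations with macrophage genes were also chosen after the values were seen. Their permutations shuffled libraries across groups, the 6d group included. The part of macrophages and neutrophils in the rise of Cd22 was not tested.

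**Figure D3:**
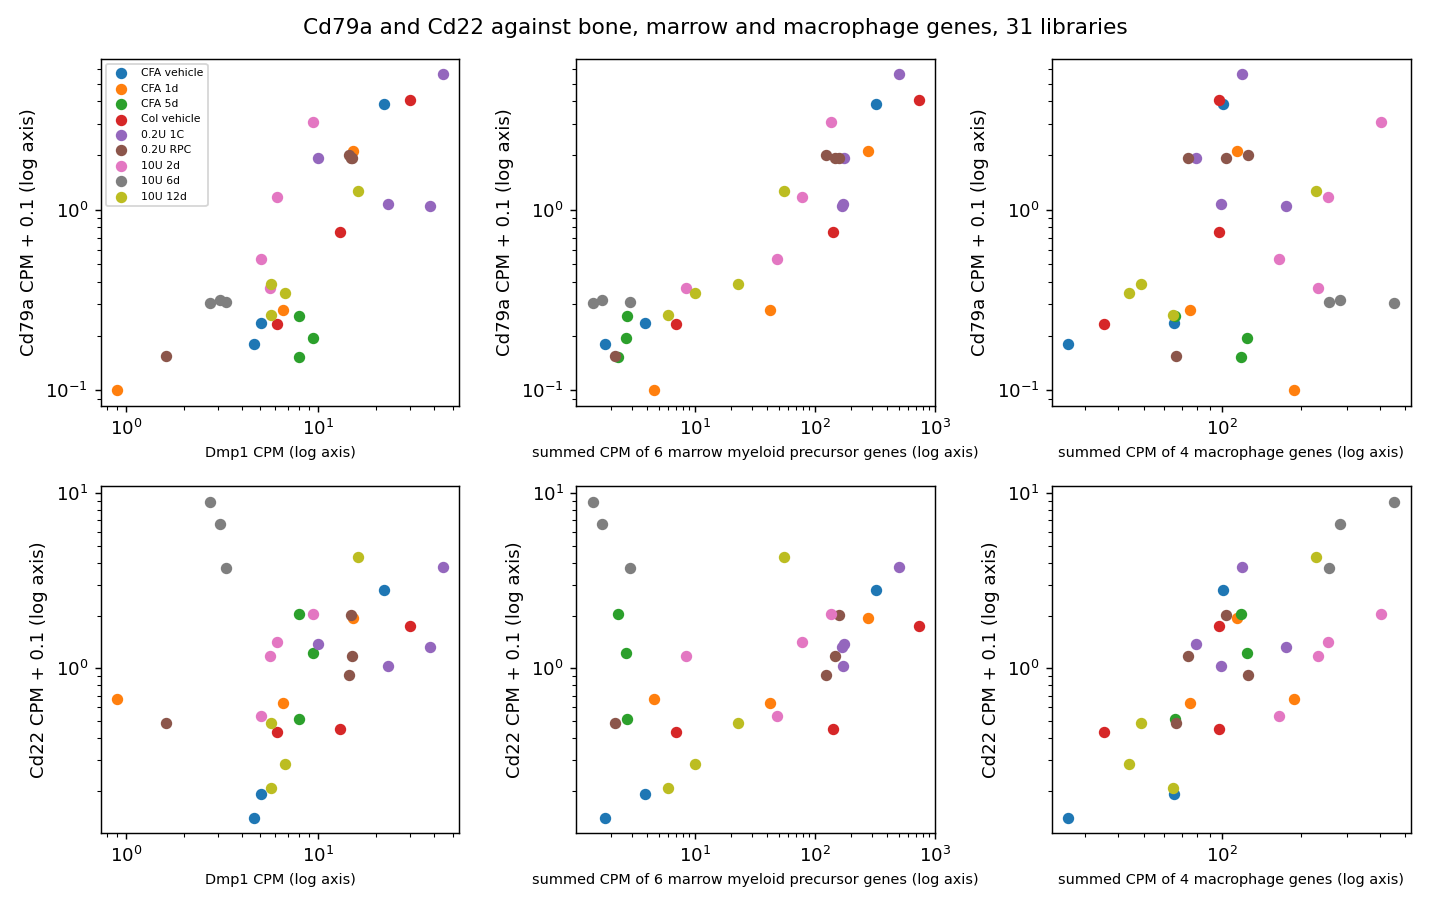
CPM + 0.1 of Cd79a (upper row) and Cd22 (lower row) on log y axes against Dmp1, the summed 6 marrow myeloid precursor genes and the summed 4 macrophage genes (log x axes, CPM), with a point per library coloured by group. Cd79a rose along the marrow axis (r = 0.914), while the 6d post-Col (10U) libraries had the highest or near-highest Cd22 at 1.4 to 2.86 CPM of marrow genes.

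The genes most like each member were searched over all libraries. Over 31 libraries and 15526 genes, the genes with the highest Spearman's rho with Cd79a included Spna1 (0.956), Ermap (0.952), Rhag (0.941) and Fam55b (0.935). Cd79b was most like Ermap (0.943), Slc14a1 (0.925), Spna1 (0.916), Rhag (0.913) and Trim58 (0.91). Rhag and Ermap encode membrane proteins of red cells and Spna1 a spectrin of the red cell membrane. Pax5 was most like Kel (0.928), Apol11b (0.895), Car1 (0.882), Tspo2 (0.881) and Cldn13 (0.881), and Ms4a1 like Dntt (0.899), Fcrla (0.884), Padi4 (0.864), Ermap (0.859) and Mmp8 (0.858). Dntt, the terminal transferase, is a gene of lymphoid precursors. Cd22 was most like Cybb (0.924), Glipr1 (0.908), Clec12a (0.908), Kif21b (0.907) and Il7r (0.896), of which Cybb encodes a subunit of the phagocyte oxidase. These libraries share depth and tissue makeup, and the values are descriptions.

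Marrow stages of the B lineage were present in the libraries with high members. The 7 genes of B cell precursors (Rag1, Rag2, Dntt, Igll1, Vpreb1, Vpreb2 and Vpreb3) summed to 13.9 CPM in CFA vehicle replicate 3 and 11.5 CPM in 1C replicate 2. Their sum was 0.137 to 0.242 CPM in the other two CFA vehicle libraries and 0.137 to 0.29 CPM at 6d post-Col (10U). Rag1 had 171 reads in CFA vehicle replicate 3 and 0 in every 5d CFA and every 6d Col library. No B precursor gene met the filter at 1d or 5d post-CFA, or at 6d post-Col (10U) against vehicle or 2d, so none was tested there. In the other comparisons 2 to 4 of 7 were tested and none passed. In those, 0 to 2.22% of all tested genes were called.

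Of the 8 lymph node genes, Ccl19, Ccl21a, Glycam1 and Madcam1 were at or near 0, while Cxcl13, Tnfsf11, Cr2 and Fcer2a were counted. Cr2 had 0 to 15 reads per library and Fcer2a 0 to 25, and both are on the list of mature B cell genes too. Ccl19 and Ccl21a, chemokines of the T cell zone whose reads may map to more than 1 copy, were listed at 0 in all libraries. Glycam1, made by the specialised venules of lymph nodes, had 0 to 2 reads per library, and Madcam1 0 to 6. The 8 lymph node genes summed to 0.484 to 11.6 CPM with a median of 2.71 CPM, and the 5 members to a median of 3.72 CPM. Tnfsf11 had 0 to 76 reads per library and Cxcl13 2 to 278, the most in 1d post-CFA replicate 1. That library had 0 reads on Cd79a, 3 on Ms4a1, 5 on Cd79b and 14 on Cd22. The 8 T cell genes, which lymph node also holds, summed to 3.6 to 19.9 CPM, with 0 to 9 reads on Cd3e and 31 to 294 on Cd28. Of 4 T cell genes tested at 6d against vehicle Cd4 rose (2.47 ± 0.59, edgeR adjusted p = 0.0224), and of 3 tested against 2d Cd4 (2.95 ± 0.42, 0.00947) and Cd28 (1.84 ± 0.28, 0.0114) rose. Of all tested genes 27.3% and 8.73% were called in these comparisons.

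Several bone and marrow genes fell at 6d against vehicle, where 27.3% of all tested genes were called. The 9 bone genes summed to 9.96 to 47.5 CPM at 6d and 33.1 to 40.6 CPM at 5d post-CFA, and the 10 marrow myeloid and erythroid genes to 3.77 to 4.15 and 2.54 to 3.02 CPM. Of 7 bone genes tested at 6d against vehicle 4 fell, with a median log2 fold change of -2.49 for the list and 0.01 for all tested genes, and Dmp1 fell by 2.47 ± 0.55 (SE, edgeR adjusted p = 0.019). Of 5 marrow myeloid and erythroid precursor genes tested 4 fell, with a median of -6.52, among them Camp (-6.52 ± 1.22, edgeR adjusted p = 0.0119) and Mpo (-6.75 ± 1.72, 0.0279). Salivary gland genes, from a gland next to the muscle, summed to 11.2 to 33.6 CPM at 6d and 87.5 to 150216 CPM in the Col vehicle libraries, and 4 of 4 tested fell. A gene with fewer than 10 reads in each 6d library entered these tests only where all 3 vehicle libraries reached 10. Bglap (mean 0.0534 CPM at 6d), Dcpp1 (0.0505) and Pip (0.0696) were near 0 at 6d. The counts of falls and the list medians were thus partly set by the filter. The part of bone, marrow and gland in the differences of the B cell genes was not tested by removing them, but bone and marrow levels were entered as covariates.

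The mean log2 CPM of Ibsp and Dmp1 was entered as a covariate in 1 fit of 31 libraries. In it the log2 fold change of Cd22 at 6d against vehicle was 4.65 ± 1.04 (SE, edgeR adjusted p = 0.00175). At 6d against 2d it was 4.39 ± 0.95 (0.00265). No other member was called with that covariate in any comparison. The bone covariate was 0.306 to 3.21 at 6d, 0.251 to 5.73 in the Col vehicle libraries and 3.52 to 5.19 at 2d. It was lower in every 6d library than in every 2d library, and was assumed to act linearly on the log scale. With the marrow myeloid genes as covariate, added after the values were seen, Cd22 had 5.87 ± 1 (edgeR adjusted p = 0.000192) at 6d against vehicle. Cd79a (2.50, edgeR adjusted p = 0.00672), Cd79b (2.45, 0.0107) and Ms4a1 (3.57, 0.0166) were then called too, and Pax5 was not (0.72, 0.657). For Cd79b the direction was opposite to that of the fit without the covariate. Cd79a was 0.205 to 0.215 CPM at 6d, within its Col vehicle range of 0.133 to 3.98 CPM. Ms4a1 was 0.171 to 0.301 CPM at 6d, within 0 to 1.66 CPM in Col vehicle. The 6d libraries lie at the low end of the marrow covariate, which was assumed to act linearly on the log scale.

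The share of Cd22 within the members was itself different at 6d. Cd22 had 153, 259 and 88 reads at 6d, and the other 4 members together had 35, 44 and 32. The ratio was 2.75 to 5.89 at 6d, 0.774 to 2.18 at 5d post-CFA, and 0.0625 to 1.75 in the other groups. The 5d CFA libraries, in which the 6 marrow genes summed to 2.27 to 2.71 CPM, were the nearest in marrow level to the 6d libraries, at 1.4 to 2.86 CPM. In them Cd22 was 0.417 to 1.96 CPM, and Cd79a 0.0529 to 0.156 CPM against 0.205 to 0.215 CPM at 6d. These are values of separate experiments, with no test.

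**Figure D4:**
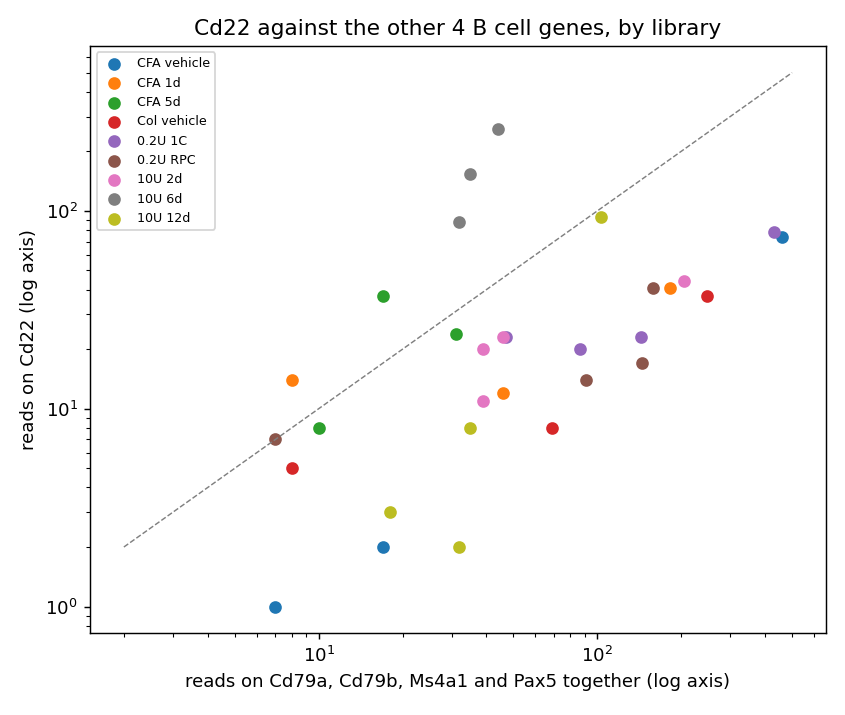
Reads on Cd22 (y axis, log) against reads on Cd79a, Cd79b, Ms4a1 and Pax5 together (x axis, log) in each of the 31 libraries, coloured by group, with a dashed line where both are equal. The 3 libraries at 6d post-Col (10U) lie above the line with 2.75 to 5.89 Cd22 reads per read of the others, and most other libraries lie below it.

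Of 7 mature B cell genes tested at 6d against vehicle 1 rose, Cd72, with a log2 fold change of 1.86 ± 0.52 (SE, edgeR adjusted p = 0.0367), and none fell, with a list median of 0.25, beside 27.3% of all tested genes called. Cd72, like Cd22, encodes a receptor that dampens B cell signalling. Against 2d, Cd72 rose as well (2.17 ± 0.4, edgeR adjusted p = 0.0208). In the comparisons without the 6d group no mature B cell gene was called.

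Among genes of B cell receptor signalling, 6 rose and 1 fell of 19 tested at 6d against vehicle, with a median log2 fold change of 0.78, again beside 27.3% called over all tested genes. Among those that rose were Fcgr2b, an inhibitory receptor for antibody (3.08 ± 0.36, edgeR adjusted p = 0.00299), and Pik3ap1 (1.87 ± 0.47, 0.0267), an adaptor of lymphocyte signalling. Cd72 is on this list too. Fcgr2b is also made by macrophages. Of 11 transcription factors of B cells 2 rose, Pou2f2 (2.73 ± 0.84, edgeR adjusted p = 0.0474) and Irf8 (1.18 ± 0.32, 0.0323), beside 27.3% of all tested genes.

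Genes of plasma cells changed in both directions. At 6d against vehicle Igj, which encodes the J chain of secreted antibody, fell by 5.18 ± 1.33 (SE, edgeR adjusted p = 0.0284), while Sdc1 (1.07 ± 0.23, 0.0167) and Prdm1 (1.25 ± 0.28, 0.0198) rose, as 3 of 5 tested, beside 27.3% of all tested genes. Igj was 3.4, 0.931 and 28.4 CPM in the vehicle libraries and 0.301, 0.103 and 0.539 CPM at 6d. It had its most reads in Col vehicle replicate 3 (634) and CFA vehicle replicate 3 (333), where Cd79a had 89 and 102 reads. Igj had 51, 137 and 59 reads at 5d post-CFA and 140 in RPC replicate 3, where Cd79a had 1 to 3 reads. In those libraries the salivary gland genes summed to 132549 to 167508 CPM at 5d and 206760 CPM in RPC replicate 3. The part of the gland in the level of Igj was not tested.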

How the data were processed

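Members and gene lists were chosen with earlier results of these data known. For each mouse the authors sequenced a strand-marking poly(A) library from one end and deposited raw counts per gene symbol. The submitters' processing notes name bcl2fastq, TopHat2 and HTSeq with build mm9, and whether counting used strand is not given in the sources used here. The closing lines of unassigned reads are written in one form in the 9 CFA files and in another in the other 22. Of the reads on genes and the ambiguous reads together, 0.675% to 0.875% were ambiguous in the 10U libraries. All other libraries had 0.147% to 0.317%, with 0.166% to 0.236% in Col vehicle. The 10U libraries thus differed from their vehicle in this measure, and its part in the 10U results was not tested. No 2 of the 465 pairs of libraries were identical. The p-values of edgeR and DESeq2 measure the spread between mice of a group. Those of the correlations shuffle libraries across groups, unless permutation within groups is stated, and so mix differences between groups and between mice.

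CPM and tests were computed here in R 4.3.3. Genes reaching 10 counts in 3 or more of the compared libraries were tested with edgeR 4.0.16 (TMM, quasi-likelihood, libraries of both groups), with Benjamini-Hochberg adjustment over all tested genes and calls at 0.05. Of 45 member tests 29 passed this filter. DESeq2 1.42.0 was an alternative, as were other size factors, no filter, a shared fit, pooled vehicles, covariates, a replicate block and leaving out each library. Steps were tested on simulated data. Exon lengths and positions came from GENCODE vM1 (mm9).

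Replicate numbers recur in all groups, and no label says what they mark. Same-numbered libraries deviated together in all pairs (r over 0.1) in CFA 1d (lowest r = 0.165) and in the Col against CFA vehicle comparison (0.115), where the numbers were taken to pair. Only 4 of 6 and 3 of 6 samples correlated best with their own number in these, so the pairing was an assumption. There the block moved the genes called by edgeR from 0 to 1 and from 6 to 0, and called no member.

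Correlations used log2(CPM + 0.1) and two-sided permutation tests with 100000 resamples, exact for the 9 CFA libraries. A gap of over 20% of the range on the log scale was taken to split a measure into clusters. Named genes were all members, Ibsp and Dmp1, list genes that were called (at most the 4 with the largest fold change), neighbouring genes and the 5 genes most like each member. Levels of other list genes were named after their values were seen. Some list genes and like genes are not reported here. Symbols Ly6g, Mzb1 and Syk were not analysed here.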

Additional observations from a re-analysis of the deposited data

Results flagged for a closer look

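Single libraries stood apart from the other 3 of their group in 6 of 20 checks of members in groups of 4 (gap to the nearest library against the whole range, Dixon's test). Chance alone gives about 1 in 20 where checks are independent and values are normally distributed. Here the members were checked in the same libraries, where most of them rose and fell together, and many counts were low. The 6 checks were thus not independent, and their number cannot be weighed against that rate. In RPC replicate 3, Cd79a was 0.0555 CPM, against 1.83 to 1.91 CPM in the others, and Cd79b was 0.222 CPM, against 3.44 to 4.02 CPM. The summed marrow myeloid genes of that library were 2.16 CPM, and 123 to 159 CPM in the others.

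In 12d replicate 4, Cd79a was 1.18 CPM against 0.162 to 0.289 CPM, Ms4a1 was 0.996 CPM against 0.0612 to 0.215 CPM, and Cd22 was 4.21 CPM against 0.108 to 0.385 CPM. The summed macrophage genes were 227 CPM there and 44 to 64.9 CPM in the others, and the marrow genes 55.5 CPM against 5.93 to 22.9 CPM. In 1C replicate 2, Cd22 was 3.72 CPM against 0.931 to 1.28 CPM, with marrow genes at 503 CPM. The part of either tissue in these values was not tested.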

How the results depend on the processing

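Beside leaving out single libraries, 223 results of single genes were recomputed, and 185 kept their direction and their side of the threshold, 34 turned their direction, 3 lost a call and 1 gained one. The cause was not tested. For Cd22 at 1d post-CFA, at about 0 in the report, the log2 fold change was 0.0204 in DESeq2, 0.00967 with DESeq2 size factors, 0.0439 in the shared fit, 0.87 with the bone covariate, 0.65 with the marrow covariate, 0.14 with pooled vehicles and 1.18 with the block.

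With the bone covariate, Cd79b turned to 0.41 at 5d post-CFA, to 1.31 at 6d against vehicle and to 2.03 at 6d against 2d. Cd79a turned to -0.36 in 1C, 0.12 in RPC, 1.04 at 6d against 2d and -0.64 between vehicles. Pax5 turned to -0.98 in 1C and Ms4a1 to 0.61 in RPC. With the marrow covariate, Cd79b turned to 0.44 at 5d post-CFA, 0.61 at 2d, 2.45 at 6d, 1.08 at 12d and 1.84 at 6d against 2d. Cd79a turned to 0.85 in RPC, 1.04 at 2d, 0.89 at 12d, 1.46 at 6d against 2d and -1.10 between vehicles. Pax5 turned to -0.15 in 1C and 0.51 at 2d, and Ms4a1 to 1.16 in RPC.

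With the replicate block, Cd79a turned to 0.53 in RPC and 0.12 at 2d, Cd79b to 0.11 at 2d and 0.36 between vehicles, and Pax5 to 0.84 between vehicles. Cd22 at 6d against vehicle, at 3.24, lost its call under the block (edgeR adjusted p = 0.0633), and no other member call changed. Where the numbers mark nothing known, the block moved the genes called from 319 to 4525 at 2d, 3900 to 1473 at 6d, 174 to 57 at 12d, 1267 to 2228 at 6d against 2d, 155 to 130 at 5d post-CFA, and from 0 to 1 in 1C and 11 in RPC. In none of these comparisons did every sample correlate best with its own number (0 to 3 of 6 samples).

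The number of members called at 6d against vehicle was 1, and 0 in the shared fit, 0 with the block and 4 with the marrow covariate. At 6d against 2d it was 1, and 2 in DESeq2, 0 in the shared fit and 2 with the marrow covariate. Leaving out single libraries gave 0 to 2 members called at 6d against vehicle and 0 to 1 at 6d against 2d.

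On deviations from group means, rho was 0.556 for Cd79b with Ibsp, past the threshold no longer, and 0.73 for Cd22 with Dmp1, 0.7 for Cd22 with the marrow genes and 0.496 for Cd79b with the macrophage genes, now past it. The other correlations kept their side under log2(CPM + 1), other size factors and deviations, though Cd22 with Ibsp was close to the threshold under DESeq2 size factors (adjusted permutation p = 0.0486).

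Leaving out single libraries moved members across 0 in several comparisons. At 1d post-CFA the log2 fold change ranged from -2.27 to 2.32 for Cd79b, -0.86 to 3.86 for Cd22 and -0.18 to 0.96 for Pax5. At 5d post-CFA it ranged from -2.94 to 0.86 for Cd79b and -0.29 to 0.69 for Cd22. In 1C it ranged from -0.36 to 2.50 for Cd79a and -0.46 to 0.63 for Pax5. In RPC it ranged from -0.74 to 1.80 for Cd79a, -0.16 to 1.54 for Cd79b, -0.61 to 0.31 for Ms4a1, -0.0839 to 1.66 for Cd22 and -0.23 to 0.79 for Pax5. At 2d it ranged from -1.51 to 1.46 for Cd79a and -1.23 to 0.63 for Cd79b, and at 12d from -1.41 to 0.31 for Cd79b. Between vehicles it ranged from -0.28 to 0.79 for Cd79a, -1.65 to 2.75 for Cd79b and -0.59 to 0.43 for Pax5. Cd22 ranged from 2.57 to 4.17 at 6d against vehicle and from 2.13 to 2.82 at 6d against 2d.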
